A study of Homo sapiens with 6 samples.

Results

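The AP-1 and ATF/CREB transcription factors are described here on arrays of SH-SY5Y, an established line from a human neuroblastoma that keeps features of noradrenergic neurons, after exposure to manganese. The 10 genes are ATF3, CREB5 and ATF2, the JUN genes JUN, JUNB and JUND, and the FOS genes FOS, FOSB, FOSL1 and FOSL2, out of 18132 genes that had a probe set with a single gene symbol. Every probe set whose annotation named 1 of these genes and no other was taken, which gave 40 probe sets. The controls were 3 arrays from cultures labelled as control. The other 3 arrays came from cultures of the same line given 100 µM manganese for 24 h, a dose stated as the LC50 divided by 5. The titles of the treated arrays carry the abbreviation MNCL, which the labels do not spell out, and no vehicle is named. Both groups were grown with 10% serum, number their arrays as biological replicates 1 to 3, and rest on 1 cell line. Nothing in the labels says how separate the cultures were, so p-values measure only the spread between these arrays, which may be partly technical. The family was taken up after ATF3 and CREB5 had been seen to change on these same arrays. All values of the 10 genes in manganese against control are therefore given as a description, with no test of their own.

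AP-1 is a dimer of basic leucine zipper (bZIP) proteins. JUN proteins pair with each other or with FOS proteins, whereas FOS proteins need a JUN partner, and both kinds of dimer bind the element TGACTCA. ATF2, CREB5 and ATF3 belong to the same superfamily, pair with JUN among others, and prefer the cAMP response element TGACGTCA and variants such as TGACATCA. FOS and JUN are classic immediate early genes, switched on by mitogen-activated protein kinases, by calcium and by cAMP, and ATF3 is induced by many kinds of cell stress and often acts as a repressor. ATF2 is mostly controlled by phosphorylation of a protein that is already present.

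The RefSeq promoter table (GRCh38.p14) held 11 start sites for 8 of the 10 genes. ATF2 and FOSL1 had no entry. The 130 bases before the start are shown for the 3 genes with the largest differences on the arrays and for JUN, and for FOSB as the closest relative of FOS that differed little. Each is written 5′ to 3′ on the strand of the gene. FOS is read from chr14:75278698-75278827 on the plus strand, FOSB from chr19:45467866-45467995 on the plus strand and JUN from chr1:58784048-58784177 on the minus strand. ATF3 is read at the upstream one of its 2 listed starts, chr1:212565277-212565406 on the plus strand, and CREB5 at the last of its 3, chr7:28686003-28686132 on the plus strand. These starts of ATF3 and CREB5 were picked because they hold the marked motif, which their other listed starts lack. Capitals mark TGACG, the core of a cAMP response element, in FOS and FOSB, TGACATCA in JUN and ATF3, and TGACTCA in CREB5.
FOS: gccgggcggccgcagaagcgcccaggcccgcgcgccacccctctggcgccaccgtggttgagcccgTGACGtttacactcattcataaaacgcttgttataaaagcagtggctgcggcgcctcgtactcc
FOSB: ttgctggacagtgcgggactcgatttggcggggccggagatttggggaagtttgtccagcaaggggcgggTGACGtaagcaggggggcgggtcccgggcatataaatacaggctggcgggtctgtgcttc
JUN: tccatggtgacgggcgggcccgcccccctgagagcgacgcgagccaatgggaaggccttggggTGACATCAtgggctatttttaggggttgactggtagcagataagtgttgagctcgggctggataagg
ATF3: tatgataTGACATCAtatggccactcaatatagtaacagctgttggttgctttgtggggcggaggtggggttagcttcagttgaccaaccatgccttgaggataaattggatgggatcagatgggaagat
CREB5: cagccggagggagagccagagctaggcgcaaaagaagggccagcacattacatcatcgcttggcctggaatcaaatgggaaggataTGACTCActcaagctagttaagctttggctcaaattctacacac

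The letters were searched on both strands in the 250 bases before every start. TGACG began 64 bases before the start of FOS and 60 bases before that of FOSB, and both promoters also held TATAAA, at 33 and 30 bases. TGACATCA began 67 bases before the start of JUN and 123 bases before the upstream start of ATF3. TGACTCA began 44 bases before the CREB5 start shown. TGACGTCA was found in JUND alone among these genes, 200 bases before the start, and this copy also holds TGACG. Among all 35116 promoter windows of that length, 21.2% held TGACG, 2.37% TGACATCA, 4.2% TGACTCA, 1.65% TGACGTCA and 10.7% TATAAA. Of the 11 windows of these genes, 6 held TGACG, 5 TATAAA, 2 TGACATCA, 1 TGACTCA and 1 TGACGTCA. These are matches of letters, and the arrays do not measure binding.

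Across the 40 probe sets, 14 had all 3 manganese arrays above all 3 control arrays, against 8.9% of all 49293 probe sets that are not Affymetrix controls. In 3 the manganese arrays all lay below, against 7.63%, and in 23 the groups overlapped. The difference was above 0.5 on the log2 scale in 7, against 1.32% of all probe sets. The median difference, manganese minus control, was 0.16 on the log2 scale over the 40 probe sets and 0.02 over all probe sets. The values that stood out were those of FOS, CREB5 and ATF3, followed by JUN. For the 10 genes a difference carries the standard error (SE) given by the spread of the 3 arrays in each group. Of the 40 probe sets 25 passed a filter on dim signal, above the 40th percentile of the array (4.37 to 4.40 log2) on at least 3 of 6 arrays. The limma fit over all 29871 probe sets that passed called 4 of these 25 at an adjusted p under 0.05, all higher, namely 2 of FOS, 1 of ATF3 and 1 of CREB5, beside 0.107% of all that passed (0.104% higher, 0.00335% lower). Among all that passed, 9.4% had every manganese array above every control array and 9.59% below. Of the 25, 2 passed the filter only through the manganese arrays, among them FOS 11734659_a_at, which is also among the 4 called. Since these genes were chosen on this comparison, nothing is read from the counts. The count of the family was 3 without control 2 and 3 with no filter on dim probe sets, both times without FOS 11749291_a_at. It was 2 without control 3, with 1 probe set each of ATF3 and FOS. Without any 1 of the manganese arrays limma called 0 of them, with 5 to 7 at an unadjusted p under 0.05. Against control 2 alone it also called 0, with 7 at an unadjusted p under 0.05, but there the control arm is 1 array, whose spread is taken from the manganese arrays.

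**Figure D1:**
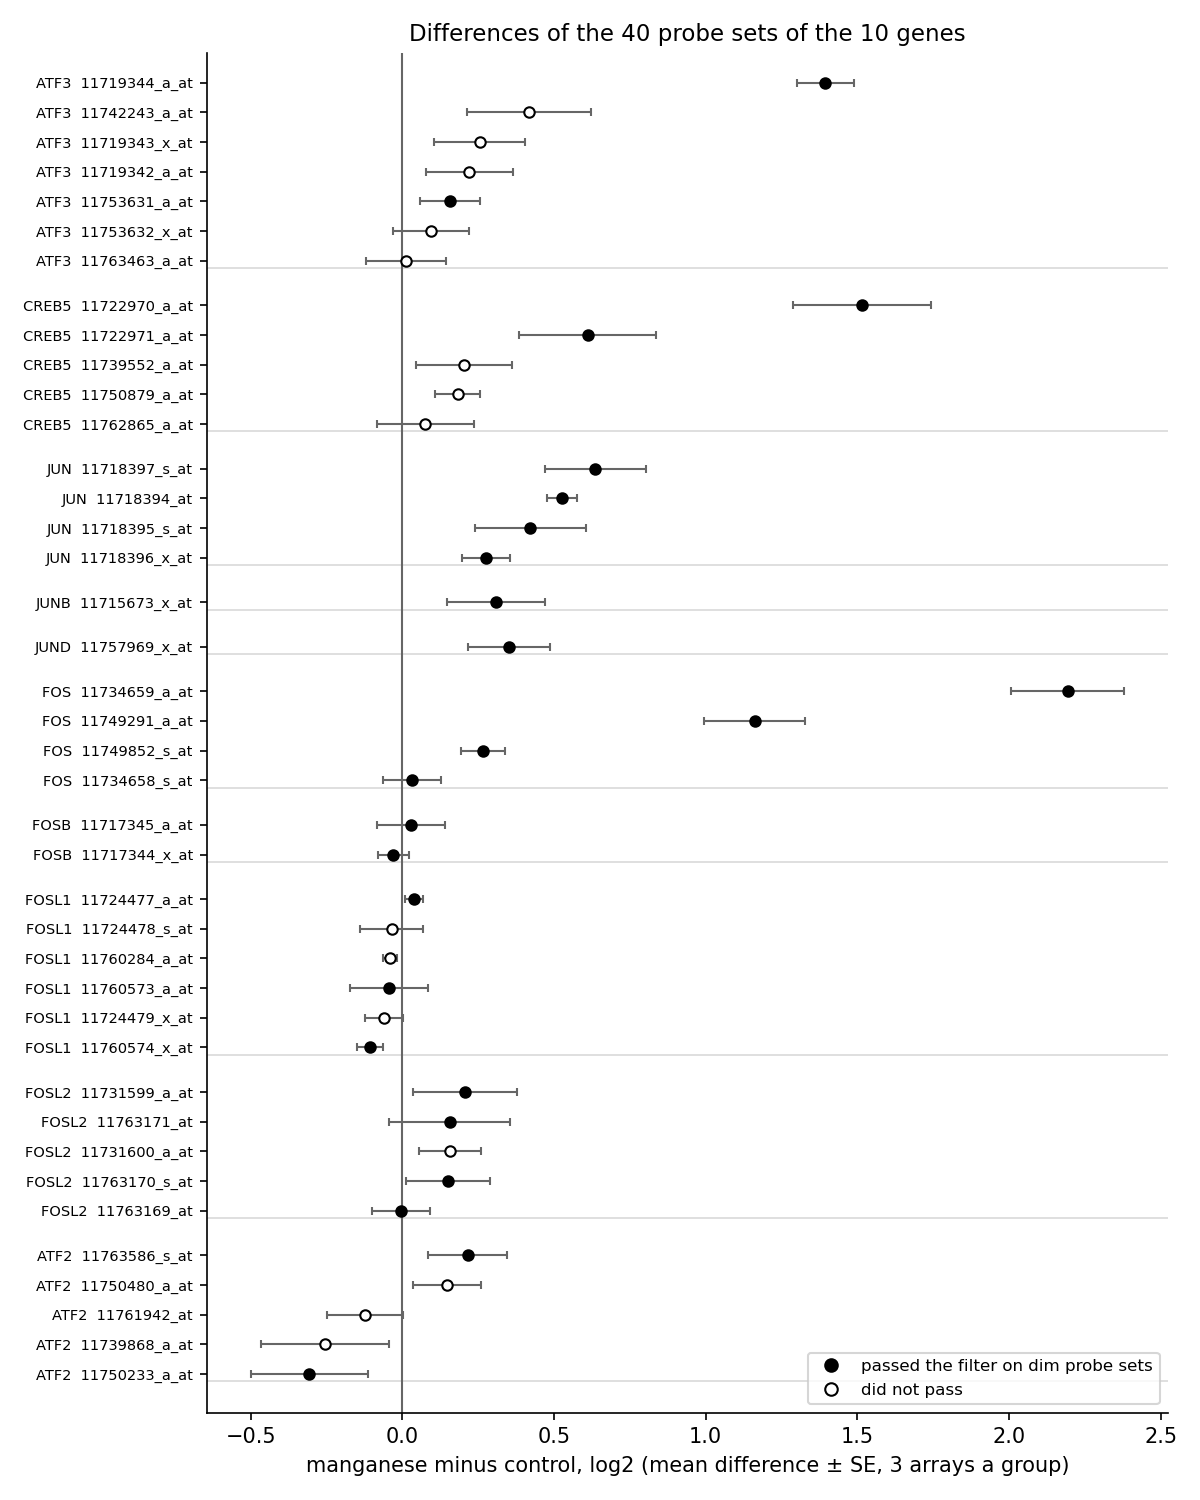
Mean difference, manganese minus control, on the log2 scale for each of the 40 probe sets, with bars for the SE from 3 arrays in each group; filled points passed the filter on dim signal and open points did not. FOS, CREB5 and ATF3 each have 1 probe set at 1.39 or above. Their other probe sets reach from near 0 up to 1.16, 0.61 and 0.42, in that order of genes. The 4 probe sets of JUN lie between 0.28 and 0.64.

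Among the arrays, control 1 stood apart, correlating with the other 5 at r = 0.967 to 0.981 across probe sets, against 0.992 to 0.995 within manganese. The mean of the 12 poly(A) spike-in probe sets was 5.83 to 6.04 log2 in control 1 and control 3 but 7.59 to 7.75 in control 2 and the manganese arrays, so values against control 2 alone are added to many of the differences. For 20 of the 40 probe sets control 1 was the lowest control. With the spike-in level as a term, which by construction gives the same differences as control 2 alone, limma called 0 of the family.

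FOS, the partner that gives AP-1 dimers with JUN their stable binding, had the largest difference of the family. At probe set 11734659_a_at the controls were at 3.97, 4.23 and 4.02 log2 and the manganese arrays at 5.98, 6.25 and 6.56. The lowest manganese array lay 1.75 above the highest control, a gap wider than the range within either group. The mean went from 4.07 ± 0.14 to 6.27 ± 0.29 (SD, n = 3), a difference of 2.19 ± 0.19 (SE) or 4.57-fold, and 2.04 against control 2. All 3 controls lay under the level of the filter, so this probe set passed the filter only through the manganese arrays and the fold is limited by background. Probe set 11749291_a_at was above that level on all 6 arrays. It read 5.23, 4.92 and 4.89 in control and 5.92, 6.31 and 6.28 in manganese, again with no overlap, a difference of 1.16 ± 0.17 or 2.24-fold, and 1.25 against control 2.

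The other FOS probe sets showed little of this. Probe set 11749852_s_at differed by 0.27 ± 0.07 with no overlap, and 11734658_s_at by 0.03 ± 0.10 with overlap, or 0.28 and 0.13 against control 2. The latter is the brightest of the 4, at 6.79 ± 0.15 in control and 6.82 ± 0.08 in manganese. Both carry the suffix s, which Affymetrix gives to probe sets shared by several transcripts or genes, whereas the suffix a marks probe sets for transcripts of a single gene. A fit that keeps the brightest probe set of each gene therefore represents FOS by the one with a difference of 0.03, and called 2 probe sets of the family, 1 each of ATF3 and CREB5. The probe set with the difference of 2.19 is also the only one of the 4 annotated to a RefSeq transcript.

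**Figure D2:**
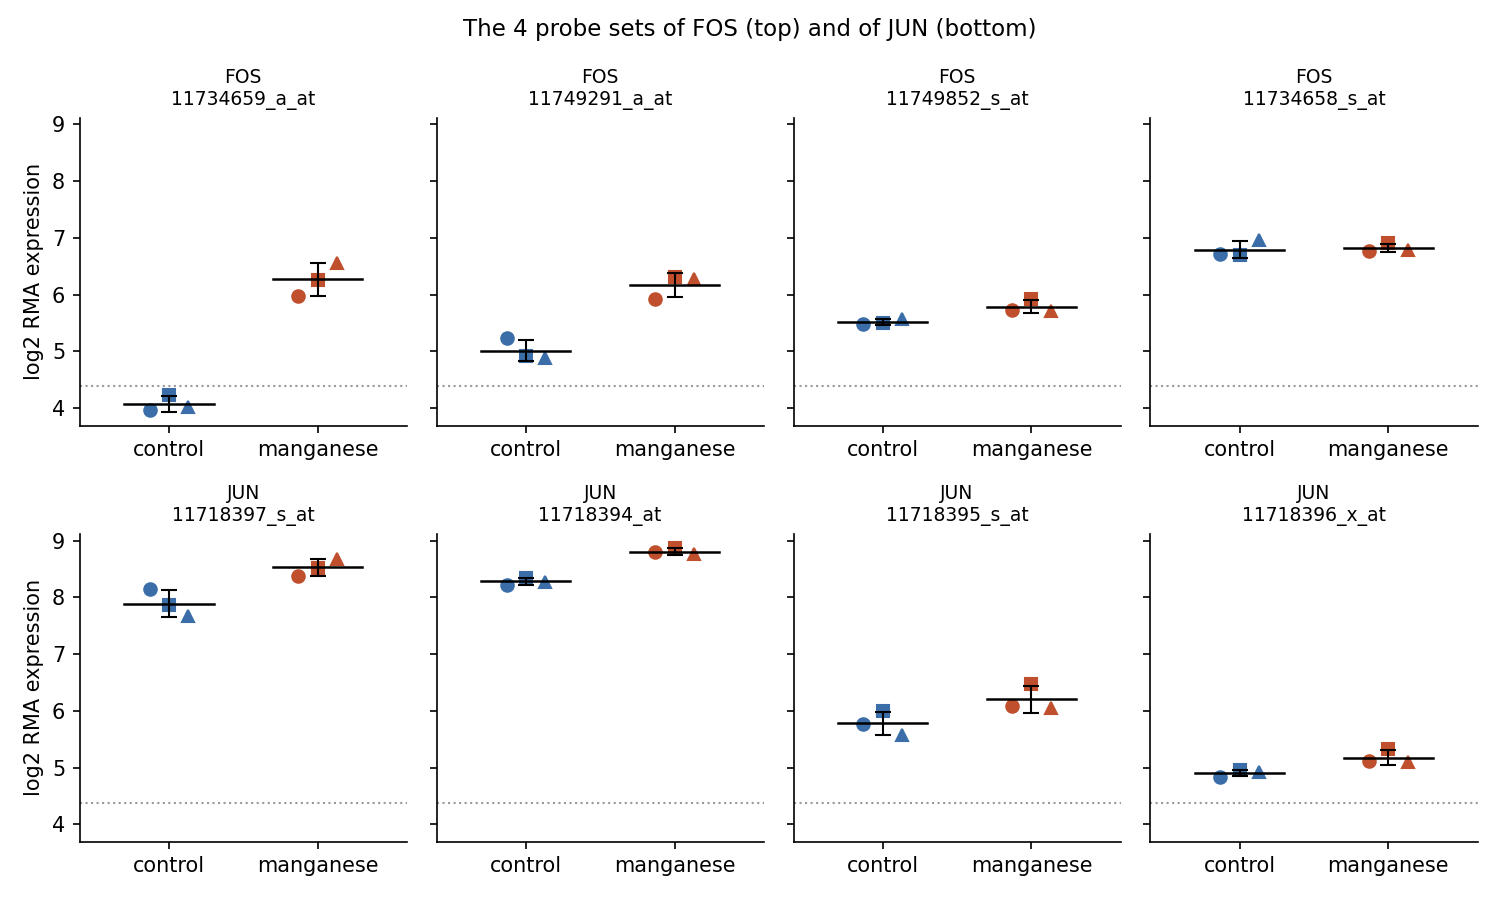
Log2 RMA expression on each array for the 4 probe sets of FOS (top) and of JUN (bottom); circles, squares and triangles are replicates 1, 2 and 3, bars are the mean and SD of 3 arrays, and the dotted line is the 40th percentile of the arrays. FOS separates the groups by 2.19 and 1.16 at its first and second panels and by 0.03 at the last, while all 4 JUN panels have the manganese arrays on top.

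JUN, which can form AP-1 as a homodimer or with any FOS protein, was higher on the manganese arrays at all 4 of its probe sets, without overlap. Its unique probe set, 11718394_at, had the narrowest spread. It read 8.22, 8.34 and 8.27 in control and 8.79, 8.87 and 8.76 in manganese, a difference of 0.53 ± 0.05 or 1.44-fold, and 0.46 against control 2. Each group spanned about 0.12 or less, and the gap between the groups was 0.42. Probe set 11718397_s_at differed by 0.64 ± 0.17, 11718395_s_at by 0.42 ± 0.18 and 11718396_x_at by 0.28 ± 0.08. Against control 2 these were 0.66, 0.21 and 0.23, so that 11718395_s_at leaned most on the other controls.

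JUNB and JUND, relatives of JUN that activate more weakly and in some settings oppose it, are each read by 1 probe set with the suffix x, which marks probes that can pick up similar sequences. JUNB was at 6.65, 7.16 and 7.10 in control and 7.28, 7.24 and 7.31 in manganese. The manganese arrays were all higher, but control 1 lay well below the other controls, and the difference of 0.31 ± 0.16 became 0.12 against control 2. JUND was at 6.53, 6.82 and 6.96 in control and 7.07, 7.22 and 7.07 in manganese, a difference of 0.35 ± 0.14, or 0.30 against control 2. All 6 probe sets of the 3 JUN genes thus had every manganese array above every control array, beside 8.9% of all probe sets. Of these 6, 4 are of JUN itself, and limma called none of them. The gap between the groups was only 0.08 for JUNB and 0.06 for 11718395_s_at of JUN.

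The remaining FOS genes differed little. FOSB, the relative of FOS known for long-lived splice forms in neurons, was at 6.98 ± 0.06 in control and 6.95 ± 0.06 in manganese at 11717344_x_at, and at 4.57 ± 0.16 and 4.60 ± 0.11 at 11717345_a_at, with overlap at both. FOSL1, which encodes FRA1 and is itself an AP-1 target in many cells, differed by -0.11 to 0.04 over its 6 probe sets. The lowest of these, 11760574_x_at, read 5.11, 4.99 and 5.03 in control and 4.89, 4.97 and 4.96 in manganese. Its groups did not overlap, but the difference was -0.05 against control 2 and 0.0046 with arrays centred on housekeeping genes. Of the FOSL1 probe sets 3 did not pass the filter. FOSL2, which encodes FRA2, differed by -0.0045 to 0.21 over 5 probe sets, all with overlap. Its widest difference, at 11731599_a_at, came with values of 4.87, 5.07 and 5.11 in control and 5.07, 5.53 and 5.07 in manganese, where manganese 2 alone was high. Another FOSL2 probe set, 11763171_at, differed by 0.16, or 0.37 against control 2. Both FOSB probe sets and 5 of the 6 FOSL1 probe sets changed sign in at least 1 setting. For 3 of these FOSL1 probe sets that was only housekeeping centring, which adds 0.11 to every difference and so turns any small negative value. No direction is given for FOSB and FOSL1. Sign changes also occurred at ATF3 11753632_x_at and 11763463_a_at, CREB5 11762865_a_at, FOS 11734658_s_at and FOSL2 11763169_at, all with differences of at most 0.10 in size.

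ATF3, the stress-inducible member that is scarce in most resting cells, was higher at 1 of its 7 probe sets by a wide margin. At 11719344_a_at the controls were at 6.15, 6.29 and 6.26 and the manganese arrays at 7.47, 7.75 and 7.66. The groups lay 1.18 apart, and the controls spanned 0.15. The mean went from 6.23 ± 0.08 to 7.63 ± 0.14, a difference of 1.39 ± 0.09 or 2.63-fold, and 1.34 against control 2. The only other ATF3 probe set that passed the filter, 11753631_a_at, read 5.71, 5.91 and 6.00 in control and 6.05, 6.09 and 5.94 in manganese. There the groups overlapped and the difference was 0.16 ± 0.10. The 5 probe sets that did not pass had means between 2.89 and 4.27 and differences between 0.01 and 0.42. As for FOS, the probe set that stood out was the only one annotated to a RefSeq transcript.

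CREB5, a close relative of ATF2 that binds cAMP response elements alone or with JUN, was near the filter level in control cells. Probe set 11722970_a_at read 4.80, 4.35 and 4.73 in control and 5.92, 6.00 and 6.50 in manganese. Control 2 was the lowest control and manganese 3 the highest array. The mean went from 4.62 ± 0.24 to 6.14 ± 0.31, a difference of 1.52 ± 0.23 or 2.86-fold. The difference was 1.79 against control 2 and 1.34 without manganese 3. At 11722971_a_at the controls, at 4.10, 4.17 and 3.99, were all below the filter level, and the manganese arrays were at 4.49, 4.46 and 5.14. This difference of 0.61 ± 0.23 leaned on manganese 3 and was 0.39 without it, and 0.53 against control 2. The other 3 probe sets did not pass the filter and differed by 0.08 to 0.20.

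ATF2, the kinase-activated partner of JUN, had no common direction among its 5 probe sets. The brightest, 11763586_s_at, read 7.35, 7.22 and 7.50 in control and 7.41, 7.54 and 7.77 in manganese, with overlap, a difference of 0.21 ± 0.13, or 0.35 against control 2. Probe set 11750233_a_at read 5.44, 4.90 and 4.84 in control and 4.73, 4.74 and 4.80 in manganese. Its manganese arrays were all lower, but control 1 alone was far above them, and the difference of -0.31 ± 0.19 was -0.12 without control 1. Probe set 11739868_a_at had the same shape, with control 1 at 4.70, the other controls at 4.08 and 4.06 and manganese at 4.01 to 4.05, and its difference of -0.25 was -0.04 without control 1.

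**Figure D3:**
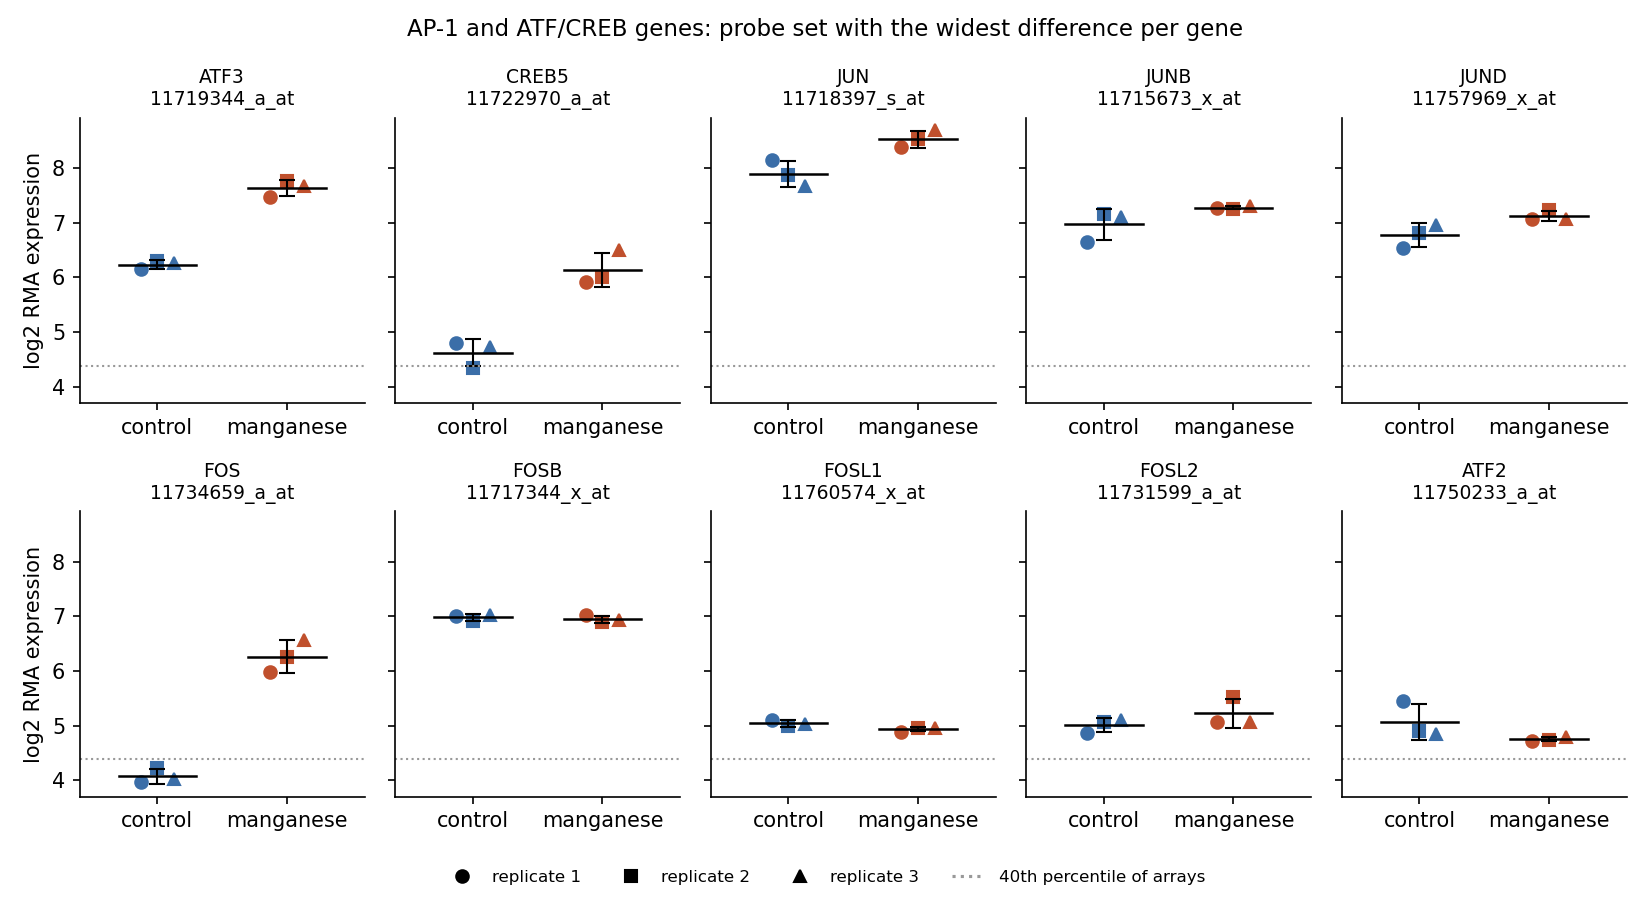
Log2 RMA expression on each array for the probe set with the widest difference of each of the 10 genes; circles, squares and triangles are replicates 1, 2 and 3, bars are the mean and SD of 3 arrays, and the dotted line is the 40th percentile of the arrays. ATF3, CREB5 and FOS show gaps of 1.18, 1.13 and 1.75 between the groups, the JUN genes show smaller gaps, and the groups of FOSB and FOSL2 overlap.

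The annotation ties 9 of the 40 probe sets to a RefSeq transcript. They include the probe set with the largest difference of FOS, ATF3 and CREB5. The others are the JUNB probe set at 0.31, 1 each of FOSB and FOSL2 at 0.03 and 0.16, and 3 of FOSL1 between -0.06 and 0.04. Of the 14 probe sets without overlap and higher in manganese, manganese 2 was the highest array in 8 and manganese 3 in 6.

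The profiles closest to ATF3 and CREB5 over the 6 arrays were found by the root mean square distance between log2 values after subtraction of each probe set's mean. For ATF3 they were the histone genes H2BC13 and H3C10, at distances of 0.15 and 0.15, and the small Cajal body RNA SCARNA20 at 0.16. For CREB5 they were EGR1, an immediate early zinc finger factor, at 0.24, ATF3 itself at 0.25 and FOS, through 11749291_a_at, at 0.26. The 4 of them outside the family differed by 1.12 to 1.52. The likeness was the rule by which they were named.

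Other genes of the pathway were taken from 5 lists. For these genes the SE after a difference is that of the limma fit, unlike for the family, and the value after a level is the SD. Of 111 genes found, 92 passed the filter, each represented by its brightest probe set that passed. In the limma fit over all probe sets 0 of the 92 passed, and 17 had an unadjusted p under 0.05, beside 12.5% of all probe sets.

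The kinases that phosphorylate JUN and ATF2 or drive FOS were split evenly. Of 19 measured, 10 differences were positive and 9 negative, with a median of 0.01. The 4 with the smallest p were MAP2K6, an activator of p38, at -0.50 ± 0.20 (SE, limma), MAP2K4, an activator of JNK and p38, at -0.34, MAPK7, which is ERK5, at 0.22, and MAPK3, which is ERK1, at 0.39, with limma adjusted p of 0.377 to 0.457. Against control 2 they were at -0.21, -0.08, 0.10 and 0.01.

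Among the other bZIP factors 21 of 31 measured were positive, with a median of 0.07. CREM, whose internal promoter gives the cAMP-inducible repressor ICER, was at 6.70 ± 0.40 in control and 7.54 ± 0.19 in manganese. This difference of 0.83 ± 0.20 (adjusted p 0.218, limma) fell to 0.45 against control 2, and the 6 CREM probe sets that passed ranged from 0.11 to 0.83. CEBPD, a C/EBP factor of the acute phase response, differed by 0.45 from a control level of 4.34 ± 0.12, near the filter level. JDP2, a dimer partner of JUN that represses AP-1, differed by 0.49, with a range of 0.16 to 0.49 over its 3 probe sets. ATF4, the main effector of the integrated stress response, differed by 0.34 from a control level of 11.23 ± 0.11. All 4 had manganese arrays above control arrays without overlap, beside 9.4% of all probe sets that passed, but they were named for the smallest p of the list. Their limma adjusted p lay between 0.218 and 0.315.

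The list of serum response factor, its ternary complex partners and coactivators had 9 of 13 negative and a median of -0.18. COPS5, a COP9 signalosome subunit first described as a JUN coactivator, differed by -0.78 ± 0.31 (SE, limma). Its control SD was 0.72, and against control 2 the difference was -0.28. NCOA1 differed by -0.58, the CREB-binding acetyltransferase gene CREBBP by -0.38 and ELK4, a ternary complex factor of the FOS promoter, by 0.22. Against control 2 NCOA1 was at -0.13 and CREBBP at -0.06. None passed, with limma adjusted p of 0.368 to 0.486.

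Textbook AP-1 targets had 14 of 24 found genes above the filter, 11 of them positive, with a median of 0.14. CLU, which encodes the secreted chaperone clusterin, came closest to the threshold. It was at 7.17 ± 0.17 in control and 8.06 ± 0.06 in manganese, a difference of 0.88 ± 0.12 (limma adjusted p 0.059), and 0.73 against control 2. It passed when arrays were centred on their median or on housekeeping genes, without control 1 and without control 2. TIMP1, a metalloproteinase inhibitor, differed by 0.76 ± 0.18 (adjusted p 0.21, limma), with its other probe sets reaching down to -0.02, and by 0.52 against control 2. TGFB1 differed by 0.39 with all 3 controls below the filter level, or 0.23 against control 2, and LIF by 0.24. The 2 LIF probe sets that passed were at -0.02 and 0.24. The other 10 genes found were too dim for the filter.

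Textbook CREB targets had 15 of 20 found genes above the filter, 10 of them positive, with a median of 0.05. DUSP1, the phosphatase that switches off p38 and JNK, was at 7.94 ± 0.14 in control and 8.40 ± 0.04 in manganese. The difference was 0.46 ± 0.11 (limma adjusted p 0.216), or 0.31 against control 2. The 3 DUSP1 probe sets that passed ranged from 0.13 to 0.46. SCG2, which encodes secretogranin II, differed by 0.43 and PCK1 by 0.23. PDE4B, a cAMP phosphodiesterase, differed by -0.54 with all manganese arrays lower, or -0.31 against control 2. None passed, with limma adjusted p of 0.341 to 0.441 for the last 3.

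**Figure D4:**
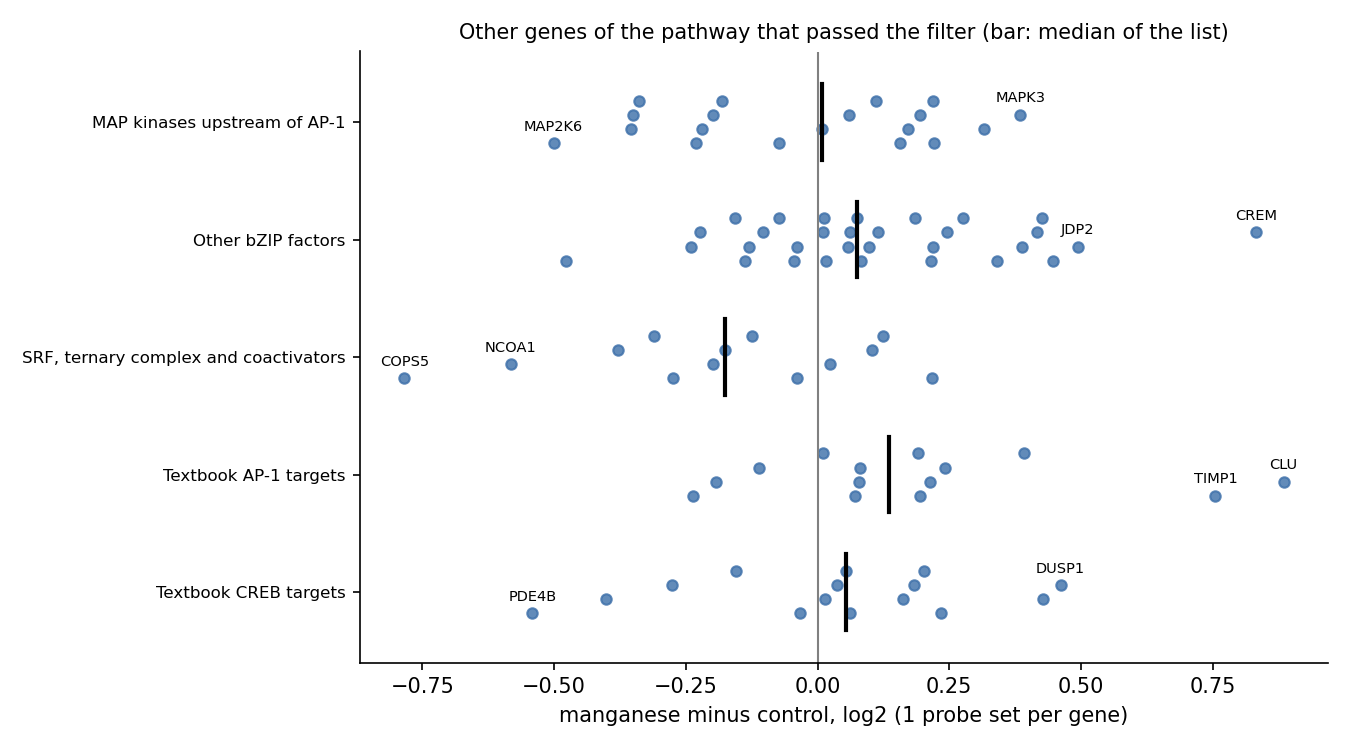
Difference, manganese minus control, on the log2 scale for the other genes of the pathway that passed the filter, 1 probe set per gene; each point is a gene, the bar is the median of the list, and the 2 genes with the largest difference in each list are named. Medians lie between -0.18 and 0.14, with CLU, CREM and TIMP1 at the upper end and COPS5 at the lower.

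Most noradrenergic markers of the line were bright in both groups. HAND2, DBH, GATA3 and PHOX2A, noradrenergic identity genes, lay between 11.55 and 13.13 log2 in control and between 11.77 and 13.10 in manganese. TH, also of this list, was dimmer, at 7.70 ± 0.25 in control and 7.82 ± 0.20 in manganese with overlap. ISL1, another marker of this list, was at 10.13 ± 0.43 in control and 9.54 ± 0.25 in manganese with overlap. The difference was -0.58 (limma adjusted p 0.361), or -0.26 against control 2. The 2 ISL1 probe sets that passed were at -0.82 and -0.58. The summed level of the 6 noradrenergic markers found, on the unlogged scale, ran from 21072 to 22011 in control and from 20246 to 21283 in manganese. Among markers of the mesenchymal state the intermediate filament gene VIM, which is also an AP-1 target in other cells, was at 10.47 ± 0.25 in control and 11.25 ± 0.20 in manganese without overlap (limma adjusted p 0.172), while FN1 differed by -0.49 with overlap, and by 0.12 against control 2. The summed level of the 6 mesenchymal markers ran from 1398 to 1956 in control and from 2292 to 2926 in manganese, and VIM made up most of it. Without VIM the sum ran from 192 to 286 in control and from 203 to 230 in manganese. SNAI2 differed by 0.25 with overlap, COL1A1 by 0.12 without overlap and PRRX1 by -0.12 with overlap. Against control 2 they were at 0.37, 0.09 and -0.21. YAP1 did not pass the filter. VIM thus moved with FOS, ATF3, CREB5 and JUN over the groups while the sum of the other markers overlapped between them, and its part in their differences was not tested. SOX10 and GFAP, markers of glia, passed the filter, at 6.62 and 6.43 log2 in control, and differed by -0.04 and -0.03. The GFAP probe sets that passed ranged from -0.10 to 0.35. The leukocyte markers CD14 and PTPRC did not pass the filter. CD3E, the third leukocyte marker found, passed at a low level, at 4.78 ± 0.03 in control and 4.95 ± 0.16 in manganese without overlap (limma adjusted p 0.559). In bulk RNA, fewer cells of a kind and less RNA per cell cannot be told apart.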

How the data were processed

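Total RNA of 6 cultures (6 µg each) was labelled and read on one-colour Affymetrix arrays. The deposited table holds log2 values of 49395 probe sets; the submitters' processing notes name RMA and Affymetrix Expression Console, without a version. RMA sets all arrays to one distribution, which removes a shift shared by most genes. Precision is limited by the number of arrays. Affymetrix controls (102) were left out. Of the rest, 44988 probe sets had 1 gene symbol in the platform annotation, 1832 several and 2473 none. Probe sets above the 40th percentile of their array on at least 3 arrays were tested with limma 3.58.1 in R 4.3.3 (lmFit, eBayes, group as the only term, two-sided, Benjamini-Hochberg over 29871 probe sets, threshold 0.05). The script was tested on simulated data. The members, the lists of pathway genes, the markers, the alternatives and the rule for named genes (every member probe set, up to 4 genes of each list by p, 3 nearest profiles, brightest markers) were chosen with earlier results of these data known. Alternatives changed the filter, probe set choice, variance model, scaling, block, spike-in term and arrays used.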

Additional observations from a re-analysis of the deposited data

How the results depend on the processing

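The fit called 32 probe sets, 31 higher and 1 lower in manganese, 4 of them of the AP-1 and ATF/CREB genes, and 0 genes of the pathway lists. With 1 probe set per gene it called 19 genes, 2 of the family. With no filter on dim probe sets 29 were called, 3 of the family, and with a 60th percentile filter 28 and 4. A variance model with trend and robust settings gave 34 and 4. Centring arrays on housekeeping genes, which shifts every difference up by 0.11, gave 183 probe sets (155 higher, 28 lower) and 2 list genes, CLU and CREM, and centring on the median gave 1, CLU. Against control 2 alone, where the spread of the single control is taken from the manganese arrays, limma called 7 probe sets and 0 of the family, and with spike-in level as a term 5 and 0. Without each array in turn the count ran from 0 to 76, that of the family from 0 to 4 and that of the lists from 0 to 1. The 0 calls came without any 1 manganese array, with 1787 to 2696 probe sets at an unadjusted p under 0.05, and the 76 without control 2. With the replicate block 15 probe sets passed, 2 of them of the family. The labels do not say whether same-numbered arrays were run together. Deviations of same-numbered arrays from their group means correlated at -0.29, 0.14 and -0.29, and no control array correlated best with its own number. With so few arrays in each group these values cannot decide whether the arrays were paired. Of the 40 differences 28 kept their sign under the 9 settings that could change one, and the other 12 were at most 0.11 in size. The block repeats the main differences and the spike-in term those against control 2, both by construction. At levels near the 40th percentile, as for FOS 11734659_a_at and CREB5, background limits the fold.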
